A study of Arabidopsis thaliana with 30 samples.

Results

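The heat response of Arabidopsis thaliana seedlings labelled smxl4 smxl5 was set against that of the wild type Col-0, gene by gene. For each gene the heat effect (heat minus control, on the log2(FPKM + 1) scale) in smxl4 smxl5 was compared with the heat effect in Col-0, and the difference of the 2 effects is called the interaction. FPKM counts fragments by transcript length and library size. The comparison uses 12 of the 30 libraries of the series: 3 of smxl4 smxl5 after 85 min at 44 °C, 3 of smxl4 smxl5 without heat, 3 of Col-0 after heat and 3 of Col-0 without heat. Seeds were imbibed for 3 days. Seedlings were 7 days old, grown on agar at 22 °C with 16 h of light, and sealed plates were put in a water bath for the heat. The remaining genotypes (ski2 dcl4, ski2 dcl4 dcl2 and smxl6 smxl7 smxl8), each with 3 heat and 3 control libraries, were used to place the heat effects and to estimate the spread. The labels give no alleles, only 1 line per genotype and only 1 heat time. Separate cultures are not stated for the 3 libraries of a group, so the p-values cover only the spread among these samples, and part of it may be technical.

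SMXL4 and SMXL5 are related nuclear proteins without which phloem does not form properly. Their relatives SMXL6, SMXL7 and SMXL8 repress strigolactone responses. HSFA2 is a heat shock factor that is made on heating and keeps chaperone genes active. The series title speaks of a loop between SMXL4/5 and HSFA2 that links growth with heat tolerance. Growing seedling cells loosen and rebuild walls of cellulose, xyloglucan, pectin and arabinogalactan proteins. Seedlings short of sugar switch on genes for amino acid breakdown, many of which also come on in the dark.

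Summed FPKM per library lay between 1014462 and 1099793 in the 6 heat libraries and between 798414 and 846487 in the 6 control libraries. The summed level of 17 root markers was 90.0 to 95.8 FPKM in smxl4 smxl5 after heat, 131 to 135 FPKM in smxl4 smxl5 control, 91.2 to 98.8 FPKM in Col-0 after heat and 127 to 134 FPKM in Col-0 control. Seed storage and embryo markers were higher in smxl4 smxl5, at 3.72 to 10.1 FPKM after heat and 8.55 to 34.2 FPKM at control, against 1.45 to 2.27 FPKM in Col-0 after heat and 2.19 to 2.32 FPKM in Col-0 control. The genotypes also differed in clock genes. LHY, a morning clock factor, had 10.9, 17.4 and 24.8 FPKM in smxl4 smxl5 after heat and 19.8, 19.0 and 18.9 FPKM at control, against 0.987, 4.61 and 1.15 FPKM in Col-0 after heat and 0.889, 1.08 and 1.08 FPKM at control. All 10 evening clock genes tested were lower in smxl4 smxl5, both after heat and at control (limma, adjusted p under 0.05). Over all genes tested, 17.2% were lower after heat and 14.8% at control. The part of seed RNA and of clock state in the results that follow was not tested.

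One library stood apart. In Col-0 heat replicate 2 the clock gene PRR5 had 5.55 FPKM, against 27.5 and 26.1 FPKM in replicates 1 and 3. The 17 small heat shock protein genes summed to 4675 FPKM there, against 2037 and 2217 FPKM. Results are given with all libraries, and for the named genes the loss of a call when 1 library was left out is stated.

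Heat changed most genes in both genotypes, and the interaction was called for far fewer. Of 21531 genes tested, 11596 (53.9%) changed with heat in smxl4 smxl5 and 12317 (57.2%) in Col-0. Rises made up 29.9% of the genes tested in smxl4 smxl5 and 29.9% in Col-0, and falls made up 24.0% in smxl4 smxl5 and 27.3% in Col-0. On upper-quartile scaling 41.0% of called heat effects were rises in smxl4 smxl5 and 41.2% in Col-0, against 55.5% in smxl4 smxl5 and 52.3% in Col-0 as deposited. The interaction was called for 448 genes (2.08% of those tested; limma, adjusted p under 0.05). It was positive for 156 (0.725%) and negative for 292 (1.36%). In 429 of the 448, the 9 heat minus control differences of smxl4 smxl5 did not overlap the 9 of Col-0, against 8.74% of all genes tested. The calls come from these same values, so this describes the called genes and is no separate support. Of the 448, 17 were listed at 0 in all 3 libraries of a group, among them the light-harvesting gene LHB1B2, and zeros of highly expressed genes may be failed estimates. Without these 17 genes the interaction was positive for 140 genes and negative for 291, and 50 genes were larger rises.

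The calls rested on single libraries to a large degree. Leaving out 1 of the 12 libraries gave 152 calls at the least, without Col-0 control replicate 1, and 754 at the most, without Col-0 heat replicate 3. Counts within 1.5 times that of all libraries were found without Col-0 control replicate 3 (379), Col-0 heat replicate 2 (390, of which 140 positive and 250 negative, and 285 among the 448), smxl4 smxl5 heat replicate 1 (583) and smxl4 smxl5 heat replicate 3 (360). The other counts were 158 without smxl4 smxl5 heat replicate 2, 197, 221 and 261 without the smxl4 smxl5 control libraries in turn, 263 without the first heated Col-0 library and 213 without Col-0 control replicate 2. In every one of these 12 fits, 125 genes were called (0.581% of those tested), 46 with a positive and 79 with a negative interaction. These are said to have held. Genes described below include held ones and ones that lost their call in 1 or more of these fits.

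Smaller rises and larger falls made up most of the calls. A smaller rise, a called rise in Col-0 with a negative interaction, was found for 147 genes, of which 28 held. A larger fall, a called fall in smxl4 smxl5 with a negative interaction, was found for 113 genes, of which 36 held. A smaller fall (called fall in Col-0, positive interaction) was found for 78 genes (14 held). A larger rise (called rise in smxl4 smxl5, positive interaction) was found for 64 genes (27 held). The other genotype need not move the same way. STP1, a smaller rise, had a heat effect of −0.61 in smxl4 smxl5, and SCPL34, a larger fall, one of 0.26 in Col-0. In 46 genes the direction was reversed, with a called rise in one genotype and a called fall in the other, and 20 of these held. Of the 147 smaller rises, 106 were genes whose heat effect was called in Col-0 and not in smxl4 smxl5. Of the 113 larger falls, 64 were called in smxl4 smxl5 and not in Col-0.

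**Figure D1:**
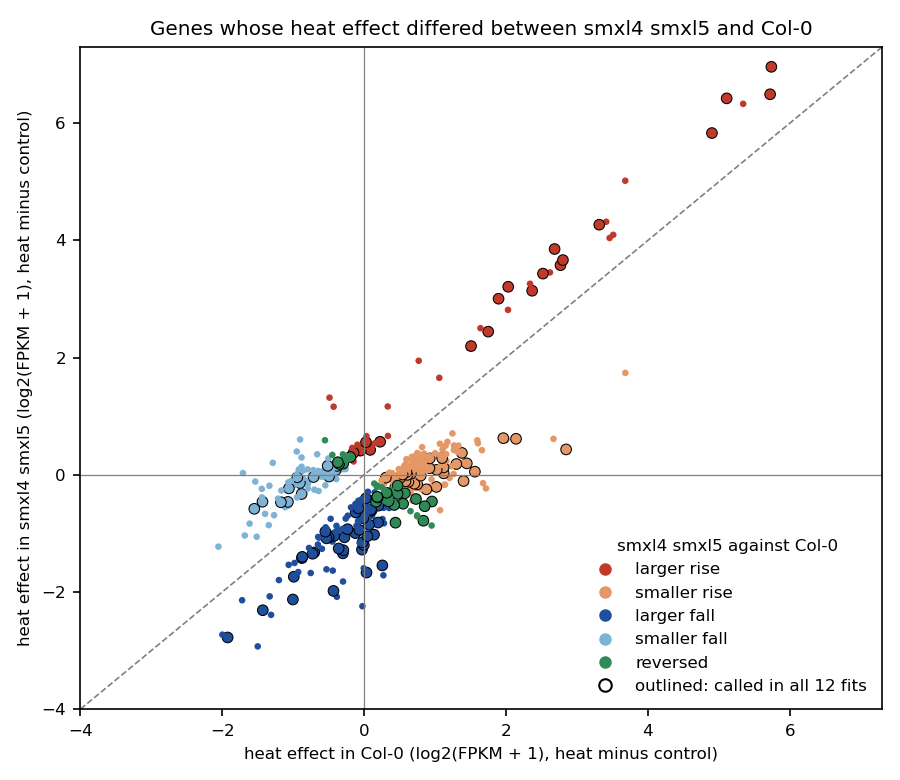
Heat effect in smxl4 smxl5 (vertical axis) against heat effect in Col-0 (horizontal axis), in log2(FPKM + 1), for genes with a called interaction that were not listed at 0 throughout a group. Colours give the class, outlined points were called in all 12 fits that left out 1 library, and the dashed line marks equal effects; larger rises and smaller falls lie above the line, and most smaller rises lie near 0 in smxl4 smxl5.

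The interaction arose in different places in different classes. A difference between the genotypes was called at control (6476 genes of all tested, 30.1%) or after heat (7819 genes, 36.3%), or both, for each of the 448 genes. It was called only after heat for 176, only at control for 153 and at both for 119. Larger rises differed mostly after heat, with 51 of 64 called only there. Of the 64, however, 14 were listed at 0 in all 3 libraries of a group. Where both genotypes lie near 0 FPKM at control, as NAD5C below, a difference at control could hardly be called. Of the 113 larger falls, 31 differed only after heat, 47 only at control and 35 at both.

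The mutated genes were examined first. SMXL5 (AT5G57130) had 2.97, 2.86 and 3.32 FPKM in smxl4 smxl5 after heat and 14.6, 15.4 and 14.98 FPKM in smxl4 smxl5 control, against 2.84, 3.38 and 3.14 FPKM in Col-0 after heat and 4.69, 4.97 and 4.06 FPKM in Col-0 control. The 3 control libraries of smxl4 smxl5 stood above all others, and after heat the genotypes overlapped. SMXL4 (AT4G29920) had 0.803, 1.15 and 1.29 FPKM in smxl4 smxl5 after heat and 3.39, 3.43 and 2.86 FPKM at control, against 2.12, 2.15 and 2.39 FPKM in Col-0 after heat and 1.76, 2.06 and 1.97 FPKM at control. Both transcripts were higher, not lower, in the unheated libraries labelled smxl4 smxl5 than in Col-0. The transcript levels do not show a loss of these genes, so the groups go by their labels throughout. The interaction was −1.55 for SMXL5 (SE 0.12, adjusted p = 7.87e-08 with limma) and −1.16 for SMXL4 (SE 0.16, adjusted p = 0.000612), and both calls held.

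**Figure D2:**
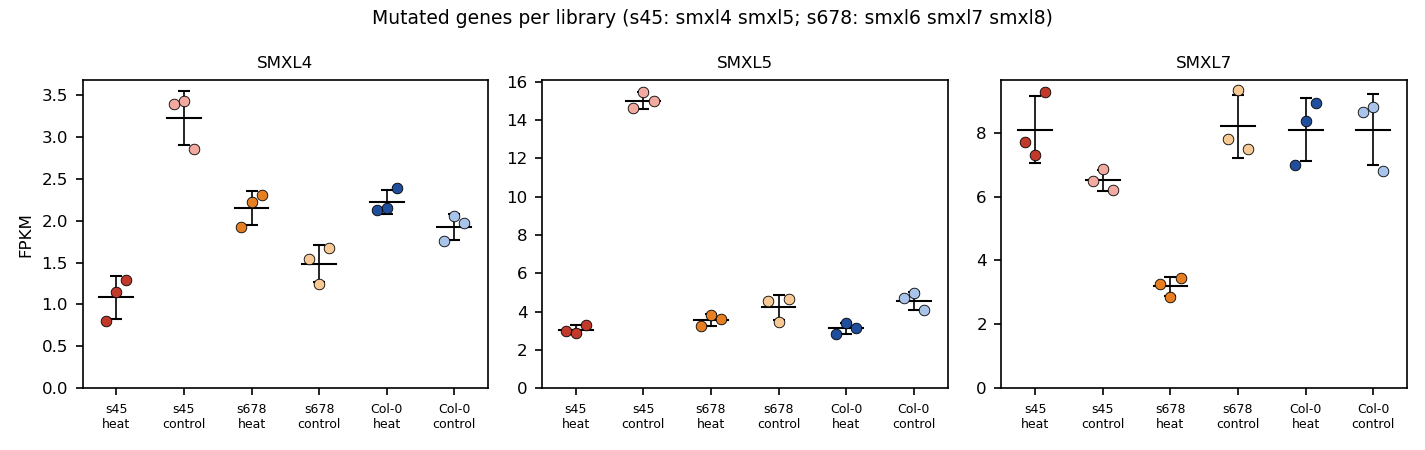
FPKM of SMXL4, SMXL5 and SMXL7 in each library of smxl4 smxl5 (s45), smxl6 smxl7 smxl8 (s678) and Col-0, after heat and at control; lines and bars are means and SD over 3 libraries. SMXL4 and SMXL5 are highest in unheated smxl4 smxl5, and SMXL7 is lowest in heated smxl6 smxl7 smxl8.

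Several named genes of the cell surface and wall had negative interactions, while most expansins lay above 0. FLA13 (AT5G44130), a fasciclin-like arabinogalactan protein of the cell surface, had 99.7, 91.5 and 94.9 FPKM in smxl4 smxl5 after heat and 285, 335 and 298 FPKM in smxl4 smxl5 control, against 106, 95.4 and 79.9 FPKM in Col-0 after heat and 94.3, 76.4 and 105 FPKM in Col-0 control. Only the unheated smxl4 smxl5 libraries stood apart; the other 3 groups overlapped. The interaction was −1.70 (SE 0.24, adjusted p = 0.000612) and held. In bulk seedlings, fewer cells of a type and less RNA per cell cannot be told apart.

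SCPL34 (AT5G23210), a serine carboxypeptidase-like protein, had the same pattern. It had 50.02, 55.6 and 76.3 FPKM in smxl4 smxl5 after heat and 204, 182 and 148 FPKM at control, against 78.2, 49.9 and 49.8 FPKM in Col-0 after heat and 44.4, 43.3 and 58.7 FPKM at control. Its interaction was −1.80 (SE 0.35, adjusted p = 0.00967) and held.

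FLA2 (AT4G12730), a further fasciclin-like protein, was reversed. It fell to 105, 97.3 and 115 FPKM in smxl4 smxl5 after heat, against 192, 193 and 176 FPKM in smxl4 smxl5 control. In Col-0 it rose, with 122, 130 and 107 FPKM after heat and 86.1, 82.7 and 94.8 FPKM at control. No library of one condition reached into the other within either genotype. The interaction was −1.26 (SE 0.19, adjusted p = 0.0012), and it held.

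FLA9 (AT1G03870) was reversed as well, at 426, 416 and 485 FPKM in smxl4 smxl5 after heat and 747, 712 and 684 FPKM at control, against 459, 371 and 341 FPKM in Col-0 after heat and 208, 213 and 277 FPKM at control. Its interaction of −1.44 (adjusted p = 0.0159) was lost without Col-0 control replicate 1 (adjusted p = 0.0543). Among the 15 fasciclin-like (FLA) genes tested, 5 had a negative interaction and 0 a positive one, against 1.36% and 0.725% of all genes tested. The median was −0.06, against 0.02 over all genes tested. The other called members were FLA18 (−0.92) and FLA17 (−0.62). The remaining 10 lay between −0.14 and 0.48, so the list was split rather than shifted as a whole. It was chosen after values were seen.

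XTH genes encode enzymes that cut and rejoin xyloglucan chains in the wall. XTH24 (AT4G30270) was reversed: it fell in smxl4 smxl5, with 156, 119 and 101 FPKM after heat and 237, 185 and 220 FPKM at control, and rose in Col-0, with 277, 176 and 221 FPKM after heat and 111, 119 and 143 FPKM at control. The groups of each genotype did not overlap. The interaction was −1.62 (SE 0.30, adjusted p = 0.0064) and held. XTH4 (AT2G06850) had 618, 516 and 529 FPKM in smxl4 smxl5 after heat and 669, 692 and 612 FPKM at control, against 504, 602 and 389 FPKM in Col-0 after heat and 256, 255 and 291 FPKM at control. Only Col-0 control was low, and the interaction of −1.13 (SE 0.23, adjusted p = 0.012) held.

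XTH33 (AT1G10550) had 13.9, 18.4 and 21.3 FPKM in smxl4 smxl5 after heat and 19.6, 23.7 and 16.1 FPKM at control, against 7.81, 9.14 and 6.003 FPKM in Col-0 after heat and 1.32, 1.36 and 2.51 FPKM at control. All Col-0 libraries, heated ones included, lay below all smxl4 smxl5 libraries. Its interaction of −1.82 (adjusted p = 0.017) was lost without Col-0 control replicate 1 (adjusted p = 0.0586) or smxl4 smxl5 control replicate 2 (0.0519). XTR6 (AT4G25810) had an interaction of −1.99 (adjusted p = 0.0195) that was called in only 6 of the 12 fits that left out 1 library, with an adjusted p of at most 0.0629. Of 29 XTH genes tested, 5 had a negative interaction and 0 a positive one, against 1.36% and 0.725% of all genes tested. Their median was −0.39, with 21 members below 0, and this list too was chosen after values were seen. The count was 2 without smxl4 smxl5 control replicate 2 or Col-0 control replicate 1, and 3 without smxl4 smxl5 heat replicate 2, smxl4 smxl5 control replicate 1, Col-0 heat replicate 1 or Col-0 control replicate 2. Expansins, which loosen walls, form a list also chosen after values were seen. Of 22 tested, 2 were negative and 1 positive, and the median was 0.17. Of the 22, 14 were above 0, against 11412 of the 21531 genes tested. In the broader list of elongation growth genes, which shares 3 of these, 4 of 32 were negative and 0 positive, with a median of −0.10, and the count was 2 without any one of 6 libraries (Col-0 control replicates 1 and 2, Col-0 heat replicate 1, smxl4 smxl5 control replicates 1 and 2, smxl4 smxl5 heat replicate 2), and also 2 with only the 12 libraries in the fit.

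Cellulose-forming genes of the primary wall had negative interactions. CEV1 (AT5G05170), the catalytic subunit CESA3, averaged 153 ± 12.9 FPKM in smxl4 smxl5 after heat and 126 ± 10.1 FPKM at control, against 177 ± 32.6 FPKM in Col-0 after heat and 81.1 ± 0.564 FPKM at control (SD, n = 3 each). Its interaction was −0.82 (adjusted p = 0.012 with limma) and held. COB (AT5G60920), a cell surface protein that orients cellulose, averaged 82.5 ± 4.55 FPKM in smxl4 smxl5 after heat and 139 ± 10.6 FPKM at control, against 110 ± 11.4 FPKM in Col-0 after heat and 110 ± 1.25 FPKM at control (SD, n = 3 each). COB fell in smxl4 smxl5, its heat effect in Col-0 was −0.01, and its interaction of −0.73 (limma, adjusted p = 0.0102) held. Of 9 such genes, chosen after values were seen, 5 were negative, 0 positive and all 9 below 0, with a median of −0.57. The negative share of all genes tested was 1.36%. Heat raised 2 of the 9 in smxl4 smxl5 and 7 of the 9 in Col-0, against 29.9% of all genes tested in each genotype. At control 7 of the 9 were higher in smxl4 smxl5, against 15.3% of all genes tested. Without smxl4 smxl5 heat replicate 2, either of smxl4 smxl5 control replicates 1 and 2, or Col-0 control replicate 1, 2 were called. Without smxl4 smxl5 heat replicate 3, Col-0 heat replicate 1, or Col-0 control replicate 2 or 3, 3 were. With only the 12 libraries in the fit, 2 were.

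Further held genes of the cell surface, picked after their values were seen, were LLG1 (−1.12), a partner protein of receptor kinases, SRF6 (−1.09), a receptor kinase of the STRUBBELIG family, TBR (−0.90) and TSD2 (−0.52), which act in wall pectin, and sks5 (−1.25). In TBR the heated smxl4 smxl5 libraries were the low ones: it averaged 17.2 ± 0.982 FPKM in smxl4 smxl5 after heat and 42.4 ± 1.93 FPKM at control, against 40.9 ± 4.91 FPKM in Col-0 after heat and 52.5 ± 1.47 FPKM at control (SD, n = 3 each). LLG1 averaged 41.8 ± 2.60 FPKM in smxl4 smxl5 after heat and 186 ± 4.43 FPKM at control, against 59.5 ± 10.99 FPKM in Col-0 after heat and 119 ± 4.49 FPKM at control (SD, n = 3 each).

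Other reversed genes also fell in smxl4 smxl5 and rose in Col-0. DND1 (AT5G15410), a cyclic nucleotide-gated channel, had 45.5, 45.1 and 54.6 FPKM in smxl4 smxl5 after heat and 74.3, 74.7 and 63.0 FPKM at control, against 40.5, 48.1 and 32.1 FPKM in Col-0 after heat and 21.7, 19.8 and 23.2 FPKM at control. Heat brought the genotypes together, as the heated libraries overlapped and the control libraries did not. The interaction was −1.39 (SE 0.23, adjusted p = 0.00258). ABCB21 (AT3G62150), an auxin transporter, had an interaction of −1.41 (SE 0.24, adjusted p = 0.00397), and FRO3 (AT1G23020), a mitochondrial ferric reductase, one of −1.04 (SE 0.19, adjusted p = 0.00646). All 3 held, but FRO3 had an adjusted p of 0.0896 when only the 12 libraries entered the fit. FRO3 had 40.7, 34.7 and 41.7 FPKM in smxl4 smxl5 after heat, against 80.1, 45.05 and 46.6 FPKM at control, where replicate 1 stood apart. Of the 46 reversed genes, 32 fell in smxl4 smxl5 and rose in Col-0, and 14 went the other way.

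**Figure D3:**
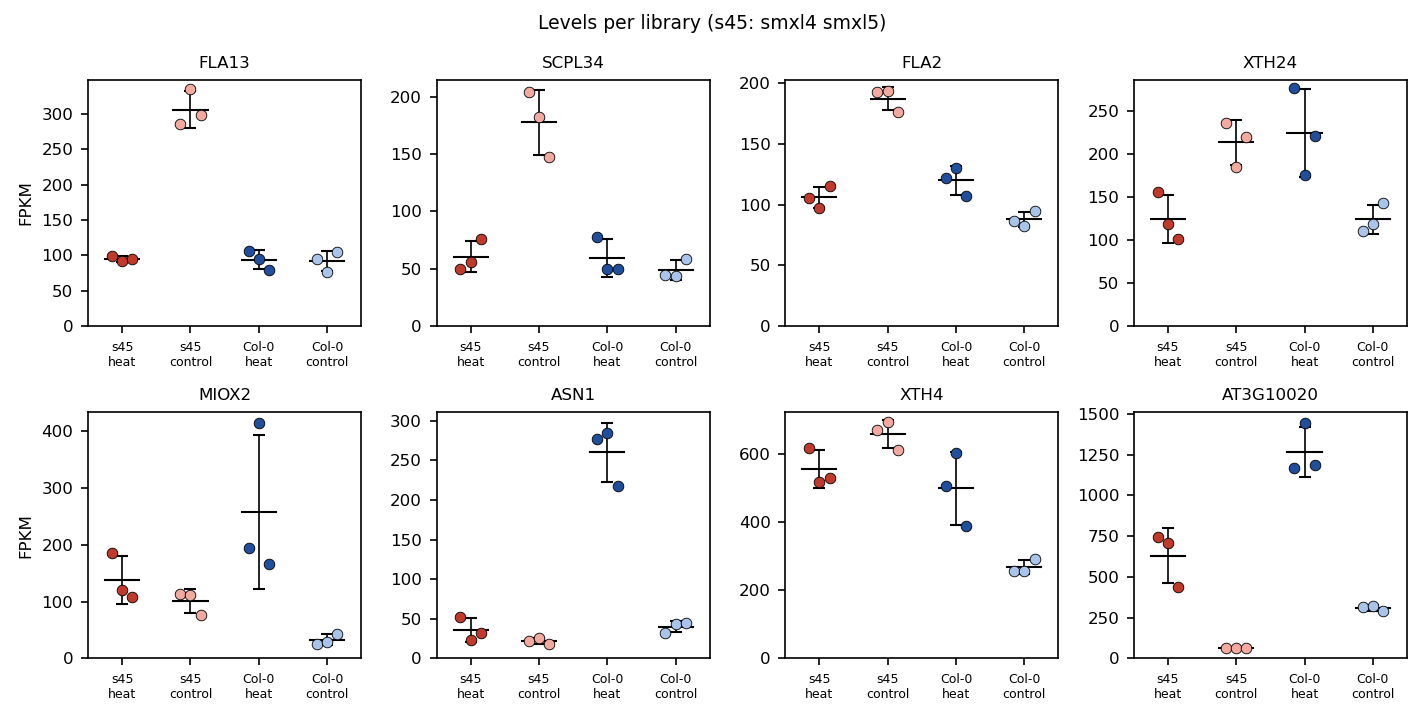
FPKM per library of 8 genes in smxl4 smxl5 (s45) and Col-0, after heat and at control; lines and bars are means and SD over 3 libraries. FLA13 and SCPL34 are high only in unheated smxl4 smxl5, FLA2 and XTH24 cross over, MIOX2, ASN1 and XTH4 rise in Col-0, and AT3G10020 is lowest in unheated smxl4 smxl5.

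Genes known to respond to low sugar and darkness were lower in heated smxl4 smxl5 than in heated Col-0. Of 17 tested, heat raised 5 in smxl4 smxl5 and 14 in Col-0, against 29.9% of all genes tested in each. The interaction was negative for 5 (MIOX2, ASN1, BCAT-2, DIN4 and IVD) and positive for 0, with a median of −0.63 and 16 members below 0. Over all genes tested it was negative for 1.36%. After heat, 16 of the 17 were lower in smxl4 smxl5 than in Col-0, and 10 were lower at control, against 17.2% of all genes tested after heat and 14.8% at control. The count of negative calls was 2 without Col-0 control replicate 1 or smxl4 smxl5 heat replicate 2, 3 without Col-0 control replicate 3, Col-0 heat replicate 2 or any smxl4 smxl5 control replicate, and 8 without smxl4 smxl5 heat replicate 1. The calls that held were MIOX2 and BCAT-2.

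MIOX2 (AT2G19800), which oxidises myo-inositol, had 186, 120 and 108 FPKM in smxl4 smxl5 after heat and 113, 112 and 76.4 FPKM at control, against 195, 414 and 166 FPKM in Col-0 after heat and 26.1, 29.3 and 43.5 FPKM at control. The smxl4 smxl5 conditions overlapped, and those of Col-0 did not. Its interaction was −2.42 (SE 0.45, adjusted p = 0.00783), the most negative of the genes the naming rule picked. It held, and had an adjusted p of 0.0552 when only the 12 libraries entered the fit. ASN1 (AT3G47340), an asparagine synthetase that is induced in darkness, had 51.9, 23.4 and 31.6 FPKM in smxl4 smxl5 after heat and 22.0, 25.4 and 18.5 FPKM at control, against 277, 285 and 218 FPKM in Col-0 after heat and 32.2, 43.9 and 44.4 FPKM at control. The heated Col-0 libraries stood far above all others. The interaction of −2.06 (SE 0.46, adjusted p = 0.0192) was lost without smxl4 smxl5 heat replicate 2 (adjusted p = 0.0722), smxl4 smxl5 control replicate 2 (0.0559) or Col-0 control replicate 1 (0.0641).

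BCAT-2 (AT1G10070), which starts the breakdown of branched-chain amino acids, had 2.66, 1.75 and 1.72 FPKM in smxl4 smxl5 after heat and 2.30, 2.40 and 2.05 FPKM at control, against 4.18, 6.98 and 4.55 FPKM in Col-0 after heat and 1.09, 1.38 and 1.51 FPKM at control. Its interaction was −1.51 (SE 0.26, adjusted p = 0.00374) and held. Over 10 genes of branched-chain amino acid breakdown, chosen after values were seen, heat raised 7 in smxl4 smxl5 and 9 in Col-0. The share of all genes tested was 29.9% in each. The interaction was negative for 4 (BCAT-2, DIN4, IVD and MCCA) and positive for 0, with a median of −0.49. Of these, BCAT-2, DIN4 and IVD are also called members of the low sugar and dark list, so the lists are not separate results. Over all genes tested the negative share was 1.36%. The count was 1 without Col-0 control replicate 1 or smxl4 smxl5 heat replicate 2, and 2 without Col-0 control replicate 3, Col-0 heat replicate 2 or smxl4 smxl5 control replicate 1 or 3. With only the 12 libraries in the fit it was 1. After heat 9 of the 10 were lower in smxl4 smxl5, against 17.2% of all genes tested.

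STP1 (AT1G11260), a hexose uptake transporter, had 23.95, 15.3 and 19.9 FPKM in smxl4 smxl5 after heat and 27.4, 28.7 and 34.5 FPKM at control, against 240, 144 and 161 FPKM in Col-0 after heat and 68.6, 91.6 and 94.0 FPKM at control. Its interaction of −1.68 (adjusted p = 0.0459) was called in only 3 of the 12 fits that left out 1 library, with an adjusted p of at most 0.124. The sucrose exporters SWEET12 (AT5G23660) and SWEET11 (AT3G48740), which load the phloem, both had negative interactions. SWEET12 fell to 5.53, 4.5 and 6.93 FPKM in smxl4 smxl5 after heat, against 45.9, 43.8 and 42.7 FPKM at control, and to 5.27, 4.63 and 5.38 FPKM in Col-0 after heat, against 22.3, 23.2 and 21.0 FPKM at control. The heated levels of both genotypes overlapped, and its interaction of −0.85 (SE 0.15, adjusted p = 0.00463) held. SWEET11 had 172, 158 and 135 FPKM in smxl4 smxl5 after heat and 130, 132 and 142 FPKM at control (adjusted p of the heat effect 0.0519), and rose in Col-0, at 147, 143 and 133 FPKM after heat and 84.1, 84.7 and 92.9 FPKM at control. Its interaction of −0.49 (adjusted p = 0.0282) was called in 4 of the 12 fits, with an adjusted p of at most 0.0786. These were the only called members of 17 phloem genes, whose median was −0.08. Of the 17, 8 were lower in smxl4 smxl5 after heat and 8 were at control, against 17.2% and 14.8% of all genes tested. Summed over 18 phloem genes, levels were 378 to 401 FPKM in smxl4 smxl5 after heat and 424 to 442 FPKM at control, against 524 to 573 FPKM in Col-0 after heat and 450 to 467 FPKM at control. The sums were thus lower after heat than at control in smxl4 smxl5 and higher in Col-0, without overlap. The difference of the sums was not tested, and highly expressed genes weigh most in them. Gene by gene the genotypes did not part in this way. Of the 17, heat lowered 8 in each genotype and raised 4 in smxl4 smxl5 and 5 in Col-0. Median heat effects were −0.11 in smxl4 smxl5 and −0.23 in Col-0. Over all genes tested heat lowered 24.0% and 27.3%, and raised 29.9% in each.

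The starch gene CT-BMY (AT4G17090), a plastid beta-amylase, went the other way. It had 21.8, 40.1 and 48.6 FPKM in smxl4 smxl5 after heat and 15.8, 14.3 and 15.3 FPKM at control, against 28.6, 13.3 and 32.6 FPKM in Col-0 after heat and 35.7, 32.2 and 27.7 FPKM at control. The low value in Col-0 came from heat replicate 2, the library that stood apart. Its interaction of 1.59 (adjusted p = 0.0384) was 1.21 without that library (adjusted p = 0.0848) and was called in 4 of the 12 fits. It was the only called member of 29 starch and sugar genes.

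Smaller falls held for 14 genes, of which RWA3 was listed at 0 in heated Col-0. CIA2 (AT5G57180), a factor for protein import into chloroplasts, averaged 18.0 ± 1.54 FPKM in smxl4 smxl5 after heat and 27.4 ± 0.694 FPKM at control, against 9.51 ± 1.69 FPKM in Col-0 after heat and 29.5 ± 0.781 FPKM at control (SD, n = 3 each). The control levels were close, and the heated libraries of Col-0 were lower. Its interaction was 0.97 (limma, adjusted p = 0.00646). EGY1 (AT5G35220), a chloroplast protease, had 0.68 and DGD1 (AT3G11670), which makes the galactolipids of chloroplast membranes, 0.67. These 3 were picked after their values were seen and do not stand for chloroplast genes at large. Of 34 nuclear photosynthesis genes tested, 13 were above 0 and 21 below, with a median of −0.03. The only call among those 34 was LHB1B2, one of the genes listed at 0 throughout a group.

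Of 6 flowering repressors of the AP2 type tested, chosen after values were seen, 3 had a positive interaction (SNZ, SMZ and RAP2.7) and 0 a negative one. All 6 were above 0, with a median of 0.42. The positive share of all genes tested was 0.725%. RAP2.7 (AT2G28550) held at 0.61 (adjusted p = 0.0136). SNZ (AT2G39250), at 1.202 (adjusted p = 0.0368), was called in 4 of the 12 fits, with an adjusted p of at most 0.103. Only 1 was called with only the 12 libraries in the fit, and without smxl4 smxl5 heat replicate 2 or 3, any smxl4 smxl5 control replicate, Col-0 heat replicate 2 or Col-0 control replicate 1. Heat lowered 4 of the 6 in smxl4 smxl5 and 5 in Col-0, against 24.0% and 27.3% of all genes tested.

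SPA3 (AT3G15354), a repressor of light signalling, had 5.12, 6.05 and 7.42 FPKM in smxl4 smxl5 after heat and 7.52, 6.97 and 6.91 FPKM at control, against 2.63, 2.46 and 2.89 FPKM in Col-0 after heat and 9.25, 8.998 and 6.68 FPKM at control. Only the heated Col-0 libraries stood below the rest. Its interaction of 1.15 (adjusted p = 0.023) was called in 6 of the 12 fits, with an adjusted p of at most 0.0739. HHO3 (AT1G25550), a repressor in nitrate and phosphate responses, had 43.5, 33.6 and 36.3 FPKM in smxl4 smxl5 after heat and 40.2, 39.9 and 40.4 FPKM at control, against 74.0, 47.2 and 70.7 FPKM in Col-0 after heat and 122, 124 and 99.0 FPKM at control. Its interaction of 0.76 (adjusted p = 0.0183) was lost without Col-0 control replicate 1 (adjusted p = 0.0619) or replicate 2 (0.0585). SPX1 (AT5G20150), a phosphate sensor, had an interaction of 1.35 (adjusted p = 0.0305) that was called in 4 of the 12 fits.

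MPK3 (AT3G45640), a stress-activated protein kinase, was reversed in the opposite sense to FLA2. It rose in smxl4 smxl5, with 58.0, 51.5 and 50.1 FPKM after heat and 38.7, 32.8 and 33.7 FPKM at control, and fell in Col-0, with 114, 57.8 and 115 FPKM after heat and 151, 131 and 124 FPKM at control. All smxl4 smxl5 libraries but 1 lay below all Col-0 libraries, the exception being heat replicate 1, which overlapped Col-0 heat replicate 2. The interaction of 1.14 (SE 0.25, adjusted p = 0.018) was lost without Col-0 control replicate 1 (adjusted p = 0.0617) or smxl4 smxl5 control replicate 2 (0.0502), and had an adjusted p of 0.114 with only the 12 libraries in the fit. The lowest heated Col-0 value came from replicate 2, the library that stood apart; without it the interaction was 0.81 (adjusted p = 0.0157).

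The ERF, ZAT and WRKY genes that respond early to touch, wounding and other stress had a median interaction of 1.00. Of 25 tested, 23 were above 0, and 0 were called by limma; 8 had an unadjusted p under 0.05, and the smallest adjusted p was 0.136. At control 22 of the 25 were lower in smxl4 smxl5 than in Col-0, and after heat 12 were, against 14.8% and 17.2% of all genes tested. Heat lowered 0 in smxl4 smxl5 and 12 in Col-0, and raised 5 in each. Over all genes tested heat lowered 24.0% in smxl4 smxl5 and 27.3% in Col-0, and raised 29.9% in each. Without Col-0 heat replicate 2 the median was 0.69.

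Heat shock genes did not pass the test of the interaction. Of 17 small heat shock protein genes, heat raised 16 in each genotype, with a median heat effect of 4.88 in smxl4 smxl5 and 5.11 in Col-0. The interaction was called for 0 by limma, 1 had an unadjusted p under 0.05, and the median was −0.10; it was 0.33 without Col-0 heat replicate 2 and 0.26 without smxl4 smxl5 heat replicate 3. HSFA2 (AT2G26150) had 386, 426 and 274 FPKM in smxl4 smxl5 after heat and 1.04, 0.576 and 0.821 FPKM at control, against 256, 509 and 291 FPKM in Col-0 after heat and 0.303, 0.426 and 0.535 FPKM at control. The heated libraries overlapped. Its interaction was −0.26 (SE 0.34, adjusted p = 0.744). None of 21 large chaperones, 19 heat shock factors and 18 heat memory genes was called by limma, with 3, 1 and 2 at an unadjusted p under 0.05 and medians of 0.05, 0.16 and −0.02. One DnaJ-type chaperone outside these lists, AT1G71000, rose less in smxl4 smxl5, with 3.54, 3.06 and 1.22 FPKM after heat and 0, 0.0999 and 0 FPKM at control, against 12.1, 10.5 and 13.8 FPKM in Col-0 after heat and 0, 0 and 0.0567 FPKM at control. Its interaction of −1.94 (adjusted p = 0.0226) was called in 7 of the 12 fits, with an adjusted p of at most 0.0609.

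AT3G10020, a gene with no symbol, rose further in smxl4 smxl5 from a lower control level. It had 745, 710 and 436 FPKM in smxl4 smxl5 after heat and 65.8, 64.9 and 65.7 FPKM at control, against 1165, 1441 and 1188 FPKM in Col-0 after heat and 313, 321 and 289 FPKM at control. All smxl4 smxl5 libraries lay below those of Col-0 in the same condition. The interaction was 1.18 (SE 0.21, adjusted p = 0.0044) and held, with an adjusted p of 0.0584 when only the 12 libraries entered the fit.

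Transcripts of the mitochondrial genome rose with heat in both genotypes when summed, and 22 of 81 tested had a positive interaction. Plant mitochondria keep their own genome, which encodes subunits of the respiratory chain, ribosomal proteins and ribosomal RNAs, and polyadenylated forms of its transcripts are known as substrates of decay. Summed over 162 such genes, levels were 1791, 2239 and 2121 FPKM in smxl4 smxl5 after heat and 13.2, 15.7 and 10.9 FPKM at control, against 877, 1292 and 1019 FPKM in Col-0 after heat and 14.2, 14.97 and 12.8 FPKM at control. The heated libraries of the 2 genotypes did not overlap, and the control libraries did. The ratio of the heated means, smxl4 smxl5 over Col-0, was 1.93, and it was 1.90 without the ribosomal RNA genes. Heated libraries of the other genotypes summed to 1344 to 1395 FPKM in smxl6 smxl7 smxl8, 859 to 1173 FPKM in ski2 dcl4 and 825 to 966 FPKM in ski2 dcl4 dcl2, all below smxl4 smxl5. Those of smxl6 smxl7 smxl8 also lay above all heated Col-0 libraries. Between the heat effects of smxl4 smxl5 and smxl6 smxl7 smxl8, 0 of the 81 mitochondrial genes tested were called by limma.

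Of 81 mitochondrial genes tested, 22 had a positive interaction and 0 a negative one, 78 were above 0 and the median was 0.70. Over all genes tested 0.725% were positive and 1.36% negative, and 11412 of 21531 were above 0. The count was 14 without smxl4 smxl5 heat replicate 2 and 28 without Col-0 heat replicate 2, 12 when only the 12 libraries entered the fit, and 13 genes held. Of the 22, 10 were listed at 0 in all 3 control libraries of at least 1 genotype, and without these 12 were called, of which 6 held. NAD5C (ATMG00060), part of a subunit of respiratory complex I, had 126, 131 and 132 FPKM in smxl4 smxl5 after heat and 0, 0.153 and 0 FPKM at control, against 52.8, 67.2 and 54.0 FPKM in Col-0 after heat and 0, 0.149 and 0.148 FPKM at control. Its interaction was 1.22 (SE 0.17, adjusted p = 0.000685). RPL16 (ATMG00080), a ribosomal protein, had 88.6, 105 and 99.8 FPKM in smxl4 smxl5 after heat and 0.154, 0 and 0.313 FPKM at control, against 43.0, 61.8 and 54.6 FPKM in Col-0 after heat and 0.471, 0.451 and 0.746 FPKM at control. Its interaction was 1.31 (SE 0.24, adjusted p = 0.00556), and both calls held when any 1 library was left out. With a pseudocount of 0.1 neither was called (NAD5C 1.60, adjusted p = 0.265, and RPL16 2.45, adjusted p = 0.0636), nor was AT2G07599 (adjusted p = 0.0919), so these 3 calls depend on the pseudocount. Over all genes tested, positive calls went from 156 to 101 with that pseudocount. Whether the other mitochondrial calls pass with it is not given here. COX1 and COX2, subunits of cytochrome oxidase, held at 0.91 and 0.95. Chromosome 2 carries a nuclear copy of mitochondrial DNA, so reads may be shared between ATMG genes and loci such as AT2G07599 (1.17, adjusted p = 0.00486), and the split between these copies is uncertain. Of 43 chloroplast genome transcripts tested, 0 were called by limma and 2 had an unadjusted p under 0.05, with a median of −0.06. Their sums over 134 genes scattered widely, at 2814, 1112 and 640 FPKM in smxl4 smxl5 after heat and 142, 805 and 1343 FPKM at control. Col-0 had 712, 1494 and 768 FPKM after heat and 465, 1318 and 497 FPKM at control. With this spread, the lack of calls does not show whether they followed the mitochondrial transcripts. The library protocol is given only as mRNA sequencing, so whether RNA was selected by poly(A) is not given in the sources used here.

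**Figure D4:**
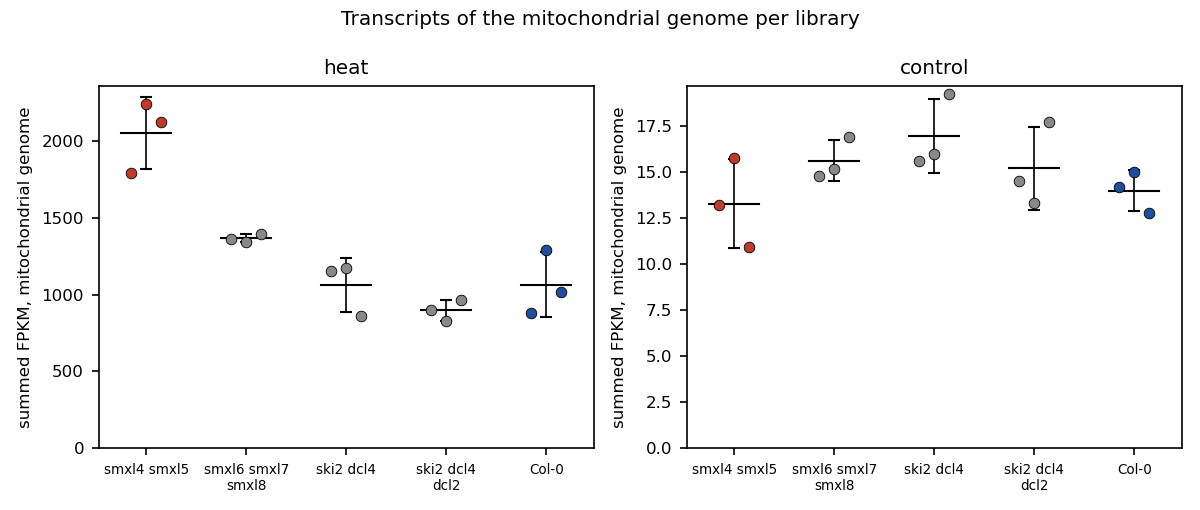
Summed FPKM of 162 mitochondrial genome transcripts per library in the 5 genotypes, after heat (left) and at control (right, on its own scale); lines and bars are means and SD over 3 libraries. The 3 heated smxl4 smxl5 libraries, at 1791 to 2239 FPKM, lie above all other heated libraries, and the control libraries of smxl4 smxl5 and Col-0 lie between 10.9 and 15.7.

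Genes of other cell types gave few calls. Among 16 root markers 0 were called by limma (1 at an unadjusted p under 0.05; median −0.02), and among 14 xylem genes only PHV (AT1G30490), a transcription factor of leaf polarity and vascular tissue, was, at −0.49 (adjusted p = 0.0118). It held, with an adjusted p of 0.0552 when only the 12 libraries entered the fit, and had 7.57, 7.89 and 8.19 FPKM in smxl4 smxl5 after heat and 12.1, 12.4 and 12.2 FPKM at control, against 7.77, 8.35 and 6.89 FPKM in Col-0 after heat and 7.58, 8.47 and 8.46 FPKM at control. Of the 7 seed markers tested only SESA2 was called (−2.22, adjusted p = 0.0488). In 1 of its 3 unheated smxl4 smxl5 libraries, replicate 1, it had 30.3 FPKM against 5.29 and 4.73 FPKM in the others, and without that library the interaction was −1.42 (adjusted p = 0.08). SESA2 was called in only 3 of the 12 fits that left out 1 library, with an adjusted p of at most 0.124. It was also lost with only the 12 libraries in the fit (adjusted p = 0.186) and with a pseudocount of 0.1 (0.271). Of 15 morning clock genes only LNK1 was called, at 0.93 (adjusted p = 0.046), in 3 of the 12 fits. Genes of the cell cycle leaned one way without a call: 28 of 29 were above 0 (median 0.39), 0 were called by limma, 9 had an unadjusted p under 0.05, and the smallest adjusted p was 0.0948.

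The heat effects of smxl4 smxl5 were also set against those of smxl6 smxl7 smxl8. The difference was called for 3 of 21531 genes (0.0139%; limma), with 1601 at an unadjusted p under 0.05, although the median SE per gene was 0.16, the same as for the comparison with Col-0. Of these, 1 was positive (0.00464%) and 2 were negative (0.00929%). All 3 were genes mutated in the series: SMXL5 (−1.80, SE 0.12, adjusted p = 1.16e-08), SMXL4 (−1.37, SE 0.16, adjusted p = 0.000143) and SMXL7 (1.41, SE 0.14, adjusted p = 7.6e-06). SMXL7, named after its values were seen, had 7.72, 7.29 and 9.28 FPKM in smxl4 smxl5 after heat and 6.47, 6.85 and 6.19 FPKM at control, against 3.27, 2.84 and 3.45 FPKM in smxl6 smxl7 smxl8 after heat and 7.79, 9.32 and 7.48 FPKM at control. Only the heated smxl6 smxl7 smxl8 libraries were low. A difference that misses the threshold does not show that the 2 genotypes act alike, so intervals are given. Between the heat effects of smxl4 smxl5 and smxl6 smxl7 smxl8, FLA13 differed by −0.03 (95% interval −0.53 to 0.46), FLA2 by 0.01 (−0.38 to 0.41), XTH24 by −0.26 (−0.88 to 0.36), MIOX2 by −0.08 (−1.02 to 0.86) and BCAT-2 by −0.14 (−0.68 to 0.39). SWEET12 differed by −0.55 (−0.86 to −0.24; adjusted p = 0.306) and NAD5C by 0.68 (0.32 to 1.04; adjusted p = 0.249).

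Against the mean heat effect of ski2 dcl4 and ski2 dcl4 dcl2, 467 genes were called (2.17%; 186 positive and 281 negative). This comparison shares the smxl4 smxl5 libraries with the one against Col-0. Heat effects of FLA13 were −1.67 in smxl4 smxl5 and −1.64 in smxl6 smxl7 smxl8, then −0.20 in ski2 dcl4, −0.18 in ski2 dcl4 dcl2 and 0.03 in Col-0. Those of BCAT-2 were −0.11, 0.03, 1.26, 1.24 and 1.40 in the same order, and those of XTH24 were −0.79, −0.52, 0.24, 0.56 and 0.83. In these genes the value of smxl6 smxl7 smxl8 lay next to that of smxl4 smxl5, and the ski2 genotypes lay between it and Col-0. Both smxl genotypes also stood apart in clock genes. Summed over 10 evening clock genes, control means were 56.4, 60.9, 167, 161 and 160.5 FPKM in the same order. Means after heat were 61.6, 61.8, 159, 152 and 130 FPKM. The part of clock state in this grouping of heat effects was not tested. SMXL5 had heat effects of −1.98, −0.19, −0.61, −0.24 and −0.43, so that smxl4 smxl5 stood alone. For NAD5C they were 6.96, 6.28, 6.002, 5.68 and 5.74.

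**Figure D5:**
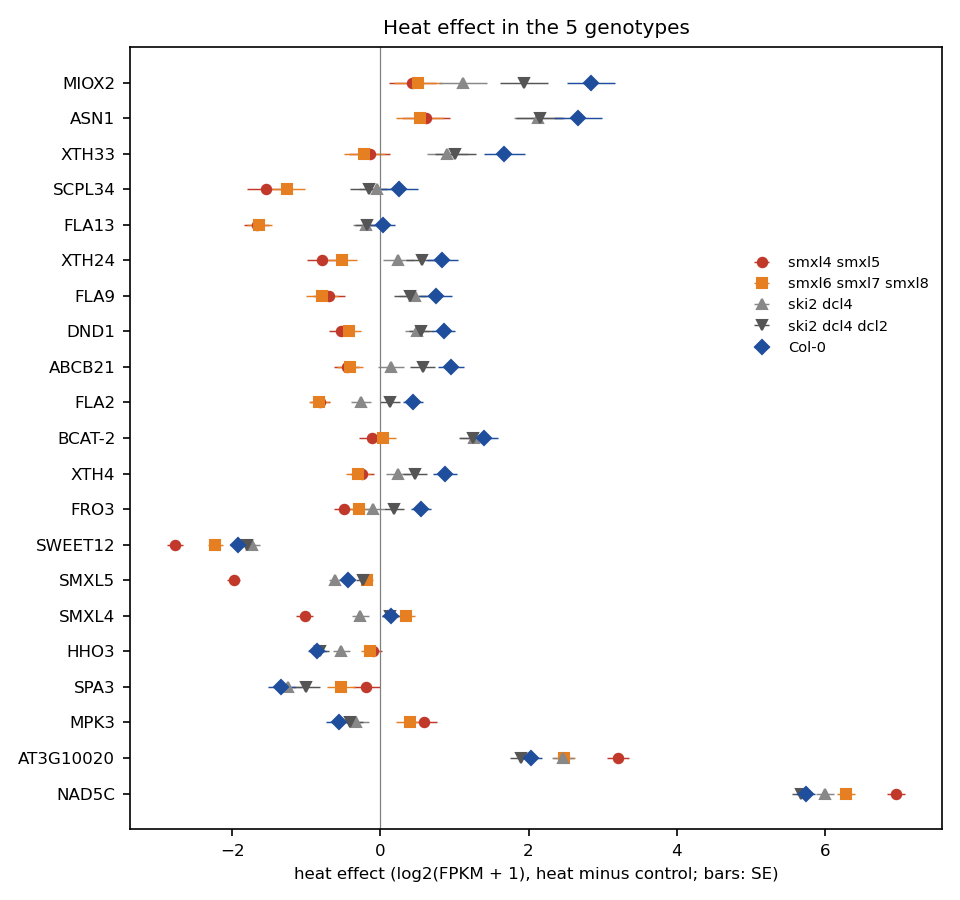
Heat effect on the log2(FPKM + 1) scale of 21 genes in the 5 genotypes, with SE from the limma fit. For most genes smxl4 smxl5 and smxl6 smxl7 smxl8 lie side by side and apart from Col-0. In SMXL5, SMXL4, AT3G10020 and NAD5C smxl4 smxl5 lies apart from the rest. Against smxl6 smxl7 smxl8, limma called this difference for SMXL5 and SMXL4, and not for AT3G10020 (adjusted p = 0.348) or NAD5C (0.249).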

How the data were processed

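The deposited table gives 38088 genes in 30 libraries. Its values were taken to be FPKM computed by the authors, a unit inferred from their decimals and from sums that differ between libraries. Bowtie is named, without a version, in the submitters' processing notes. Neither a counter nor a build nor an annotation is named there (not given in the sources used here), so no coordinates and no sequences are printed, a planned search of promoters for motifs was not run, and depth in reads is unknown. RefSeq symbols (TAIR10.1) matched 37792 identifiers.

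Values were transformed as log2(FPKM + 1), which understates changes of low genes, and a gene was tested if 3 or more libraries reached 1 FPKM. limma 3.58.1 in R 4.3.3 was fitted to all 30 libraries with 1 mean per group and an intensity trend, which share one estimate of the spread. P-values were adjusted by Benjamini-Hochberg over 21531 genes per comparison, and every adjusted p in the text is limma's. Intervals are limma's 95% intervals.

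A called gene was classed as reversed (both heat effects called, with opposite signs). Otherwise it was a larger or smaller rise or fall, by the sign of the interaction and the heat effect called, as defined above. The genes named were the 12 most positive and 12 most negative calls with at least 5 FPKM in a group, no group listed at 0 and no overlap of the 9 differences per genotype, up to 8 reversed genes, up to 2 called members per list, and SMXL4, SMXL5 and HSFA2. The comparison, members and lists were chosen with earlier results of these data known. Alternatives were another pseudocount, other filters, 2 other scalings, only the 12 libraries, no trend, a replicate block and leaving out each library. The replicate numbers did not pair the libraries.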

Additional observations from a re-analysis of the deposited data

Results flagged for a closer look

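Each gene here had a heat effect in smxl4 smxl5 that differed from that in Col-0 by limma's test of the interaction (adjusted p under 0.05), and values are log2 interactions.

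Among the most positive were AT4G06665 (1.80), AT1G69140 (1.74), CT-BMY (1.59), SPX1 (1.35), RPL16 (1.31), NAD5C (1.22), SNZ (1.2), AT5G46710 (1.18), AT3G10020 (1.18), AT2G07599 (1.17), SPA3 (1.15) and MPK3 (1.14), with LNK1 (0.93) and HHO3 (0.76) called within their lists. AT4G06665 was called in only 4 of the 12 fits that left out 1 library, and was 1.32 without Col-0 heat replicate 2 (adjusted p = 0.0607). In the RefSeq annotation it lies within CT-BMY on the other strand, so reads of the pair cannot be told apart without strand, and the pair is not shown to be 2 separate signals. AT5G46710 was called in 6 of the 12 fits. AT1G69140 was called in 9 of the 12 fits, and had an adjusted p of 0.109 with a pseudocount of 0.1. AT1G69140 was nearly silent in smxl4 smxl5, at 0.146, 0.142 and 0 FPKM after heat and 0, 0.110 and 0.112 FPKM at control, against 1.35, 0 and 1.67 FPKM in Col-0 after heat and 6.52, 4.75 and 4.06 FPKM at control.

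Among the most negative were MIOX2 (−2.42), SESA2 (−2.22), ASN1 (−2.06), XTR6 (−1.99), AT4G36850 (−1.95), AT1G71000 (−1.94), XTH33 (−1.82), SCPL34 (−1.80), FLA13 (−1.70), STP1 (−1.68), XTH24 (−1.62) and EXL3 (−1.59). AT4G36850 was called in 5 of the 12 fits that left out 1 library, and EXL3 in 4. Reversed genes were FLA9 (−1.44), AT1G72790 (−1.27), DND1 (−1.39), FRO3 (−1.04), ABCB21 (−1.41) and FLA2 (−1.26); AT1G72790 was called in 5 of the 12 fits. List members were XTH4 (−1.13), BCAT-2 (−1.51), SMXL5 (−1.55), SMXL4 (−1.16), SWEET12 (−0.85), SWEET11 (−0.49) and PHV (−0.49).

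Between smxl4 smxl5 and smxl6 smxl7 smxl8, heat effects differed for SMXL5 (−1.80), SMXL4 (−1.37) and SMXL7 (1.41).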

How the results depend on the processing

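With only the 12 libraries in the fit, 195 interactions were called (43 positive, 152 negative), with 21 larger rises, 81 smaller rises, 48 larger falls, 16 smaller falls and 29 reversed. With a pseudocount of 0.1, 101 were positive and 25 were larger rises. Upper-quartile scaling gave 175 larger falls; it moved the median heat effect by −0.12 in smxl4 smxl5 and −0.11 in Col-0, and the share of rises among called heat effects was 41.0% in smxl4 smxl5 and 41.2% in Col-0, against 55.5% and 52.3% as deposited. Against smxl6 smxl7 smxl8, 11 genes were called with no filter and 5 with the replicate block. Genes called in every fit that left out 1 library, an alternative chosen after seeing the data, numbered 125.

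When 1 library was left out, calls ranged from 152 to 754 for the interaction (54 to 317 positive, 96 to 437 negative), 10471 to 11746 for heat in smxl4 smxl5, 11195 to 12427 for heat in Col-0, 5501 to 8130 after heat, 4909 to 6660 at control, 3 to 6 against smxl6 smxl7 smxl8 and 153 to 600 against the ski2 genotypes. Classes ranged from 31 to 99 (larger rise), 36 to 267 (smaller rise), 45 to 130 (larger fall), 17 to 186 (smaller fall) and 17 to 72 (reversed). The mitochondrial ratio ranged from 1.77 to 2.16. The interaction of HSFA2 ranged from −0.46 (without Col-0 heat replicate 1) to 0.0377 (without Col-0 heat replicate 2), against −0.26 with all libraries, and was never called. The causes were not tested.

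Same-numbered libraries did not deviate together (18 correlations, −0.095 to 0.127), so the numbers do not pair them. With the replicate block 409 interactions were called (141 positive, 268 negative), and 36 of the 39 named calls passed. Depth in reads is unknown, and levels near 0 FPKM cannot be told from failed estimates.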
